A study of Danio rerio with 12 samples.

Results

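The LWS1 cones of the zebrafish retina were compared with the whole population of long-wavelength-sensitive (LWS) cones. The comparison took 6 of the 12 bulk RNA-Seq libraries of the series, chosen by their labels alone: 3 libraries of GFP+ cones (LWS1) and 3 libraries of tdTomato+ cones (tdTomato+). LWS1 cones came from adult fish of the lws:PAC(H) line, which carries an artificial chromosome with the lws locus in which GFP follows the lws1 promoter and RFP follows the lws2 promoter. The tdTomato+ cones came from adult fish of the thrb2:tdTomato line, in which the promoter of thyroid hormone receptor beta 2 drives tdTomato in LWS cones of both types. The labels give both lines a wild-type genotype, and the sources name no treatment other than the sort. All fish were dark-adapted and collected near light onset, the retina was dissected away from the pigment epithelium, and cells were dissociated with proteases before sorting on the same instrument. RNA was taken with either of 2 kits, and which library had which kit is not given. The tdTomato+ sort holds LWS1 cones by design, and each group came from its own line and fluorophore, so line, fluorophore and cell population cannot be told apart. No label ties the 3 libraries of a group to separate fish or pools, so p-values measure only the spread between these libraries. The remaining libraries, 3 of RFP+ cones (LWS2) from lws:PAC(H) and 3 of tdTomato- retinal cells from thrb2:tdTomato, are given where they help to place a value.

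Cones are the photoreceptors of daylight vision, and each cone type is named for the opsin it makes. In cones light turns the opsin on, the opsin activates the G protein transducin, transducin activates a phosphodiesterase, and the fall in cyclic GMP closes cation channels, while opsin kinases and arrestin turn the opsin off. Zebrafish carry the lws opsin genes lws1 and lws2 (opn1lw1 and opn1lw2) in tandem. Per the paper, a mutant of the thyroid hormone receptor gene thrb lacks LWS cones, and thyroid hormone favours lws1 expression over lws2. The paper gives identifying the receptors behind the hormone's effects as a future aim. Comparing LWS1 cones with all LWS cones asks which transcripts, other than the opsin, set this subtype apart. Few did so here at the depth and replicate spread of these libraries, and the similarity of the groups is described beside the differences.

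The libraries held 694158 to 1417028 counts in LWS1 and 2033038 to 2863183 counts in tdTomato+. The mitochondrially encoded genes took 18.9% to 29.7% of the counts in LWS1 and 22.0%, 71.7% and 41.2% in tdTomato+ replicates 1, 2 and 3, so that tdTomato+ replicate 2 stood apart and left only 811282 counts for all other genes. The genes thrb and both lws opsins were detected in every library of both groups. They had counts in every tdTomato- library too (thrb 4, 86 and 162), so detection alone does not check the labels. The lws opsins took 84.0% to 89.2% of all cone opsin counts in LWS1, but 51.5% in tdTomato+ replicate 1 against 77.4% and 77.7% in replicates 2 and 3, and 2.13% to 16.5% in tdTomato- cells. Levels are given as CPM, which divides the counts of a library by its size after TMM scaling to the bulk of genes, and fold changes are LWS1 over tdTomato+, so that positive log2 values are higher in LWS1.

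The makeup of the lws opsin transcripts separated the groups in every library. LWS1 cells were sorted on GFP behind the lws1 promoter, so a higher share of opn1lw1 there is a check of the sort. Summed over the 2 features listed for each gene, opn1lw1 reached 32880, 23584 and 15771 counts in LWS1 and 14895, 12774 and 12586 counts in tdTomato+. For opn1lw2 the counts were 6674, 1671 and 5790 in LWS1 and 36239, 15189 and 28154 in tdTomato+. Every LWS1 library held more counts of opn1lw1 than of opn1lw2, and every tdTomato+ library held more of opn1lw2. Averaged over 3 libraries, the share of opn1lw1 in both opsins was 83.2% ± 10.1 (SD) for LWS1 and 35.2% ± 9.09 (SD) for tdTomato+, whose libraries ranged from 29.1% to 45.7%. By a two-sided exact permutation test the difference of 48.0 points had a p of 0.1, the smallest that 3 libraries against 3 allow (0.15 adjusted over the 3 shares tested). Counting error was small beside the spread between libraries, since the widest 95% Wilson interval among these 6 libraries, that of tdTomato+ replicate 2, ran only from 45.1% to 46.3%. Reads carry no molecular identifiers, so such intervals cover counting error only. In LWS2 libraries the share was 21.1% to 31.3%, and tdTomato+ replicates 1 and 3 lay within that range.

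In total lws opsin the groups overlapped. Summed over both genes, the normalised level was 19900, 20200 and 29300 CPM in LWS1 and 16100, 21500 and 19600 CPM in tdTomato+. The separation was thus in which lws opsin gave the counts, and not in their sum. By feature, opn1lw1 had a log2 fold change of 1.99 (ENSDARG00000115464, 95% interval 1.15 to 2.82, edgeR FDR = 0.136) and of 1.33 (ENSDARG00000044862, 0.31 to 2.35, edgeR FDR = 0.690). For opn1lw2 the values were -1.87 (ENSDARG00000115709, -2.96 to -0.77, edgeR FDR = 0.418) and -1.44 (ENSDARG00000044861, -2.72 to -0.16, edgeR FDR = 0.797). For each of these 4 features the libraries did not overlap between groups, but none passed the false discovery rate (FDR) of 0.05. With DESeq2 on the same counts, run without the filter on low counts, the first opn1lw1 feature and the first opn1lw2 feature passed. Near-identical copies can exchange reads in counting, so the split between features of one opsin, and to some extent between the opsins, is uncertain.

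The cone transducin gamma genes showed the same separation. Transducin gamma is a subunit of the G protein that the opsin activates, and zebrafish cones make it from gngt2a and gngt2b. Of the counts of both genes, gngt2a took 67.3%, 68.1% and 63.2% in the LWS1 libraries and 32.8%, 24.9% and 19.1% in the tdTomato+ libraries. All LWS1 libraries lay well above all tdTomato+ libraries, and the LWS2 libraries, at 22.8% to 26.9%, lay inside the tdTomato+ range. The means were 66.2% ± 2.65 and 25.6% ± 6.87 (SD, n = 3 each) and lay 40.6 points apart (exact permutation p = 0.1, two-sided, the smallest possible, and 0.15 adjusted over 3 shares). Leaving out any one library kept the difference between 37.3 and 44.2 points. The level of gngt2b was 2650, 2390 and 3640 CPM in LWS1 and 6460, 8210 and 5640 CPM in tdTomato+ (log2 fold change -1.23, SE 0.408, edgeR FDR = 0.631). The gngt2a features, which may share reads, had log2 fold changes of 1.23 (ENSDARG00000010680) and 1.19 (ENSDARG00000110351), and none of these 3 features passed edgeR's test.

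**Figure D1:**
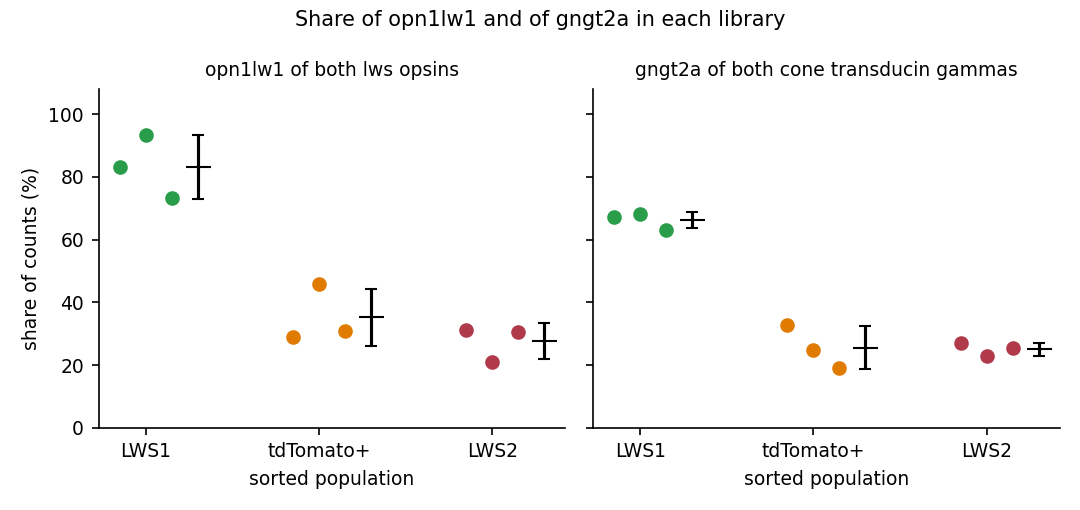
Share of counts (%) taken by opn1lw1 among both lws opsins (left) and by gngt2a among both cone transducin gamma genes (right) in each library of LWS1, tdTomato+ and LWS2, with the mean and SD of 3 libraries beside the points. LWS1 libraries sit at 73.1% to 93.4% for opn1lw1 and 63.2% to 68.1% for gngt2a, above every tdTomato+ library, while tdTomato+ and LWS2 libraries overlap.

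Opsins of other photoreceptors mostly had lower values in LWS1 libraries. Of the 8 tested, 5 had negative log2 fold changes with an unadjusted p under 0.05, as 2.94% of all features did (5.38% in either direction), the median log2 fold change was -1.49 beside -0.04 over all features, and 0 were called. Without tdTomato+ replicate 1 the median was -0.97 and without replicate 2 it was -1.19. The green opsin gene opn1mw1 had 41, 6 and 31 counts in LWS1 and 8307, 153 and 517 in tdTomato+. The groups did not overlap, and tdTomato+ replicate 1 held most of the counts. Its log2 fold change was -5.52 (95% interval -7.91 to -3.14, edgeR FDR = 0.136), and without tdTomato+ replicate 1 it was -3.10 (edgeR FDR = 0.164). The UV opsin gene opn1sw1 stood at 96.5, 389 and 182 CPM in LWS1 and at 654, 1830 and 632 CPM in tdTomato+ (log2 fold change -2.22, SE 0.564, edgeR FDR = 0.326). Against tdTomato+, LWS2 was lower too, at -2.71 for opn1sw1 (edgeR FDR = 0.0320) and -2.78 for opn1mw1 (edgeR FDR = 0.438). That comparison shares the tdTomato+ libraries. The blue opsin gene opn1sw2 had -1.58 and the green opsin gene opn1mw2 had -1.61, whereas opn1mw3 and opn1mw4 had 0.64 and 0.47 with overlapping libraries.

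**Figure D2:**
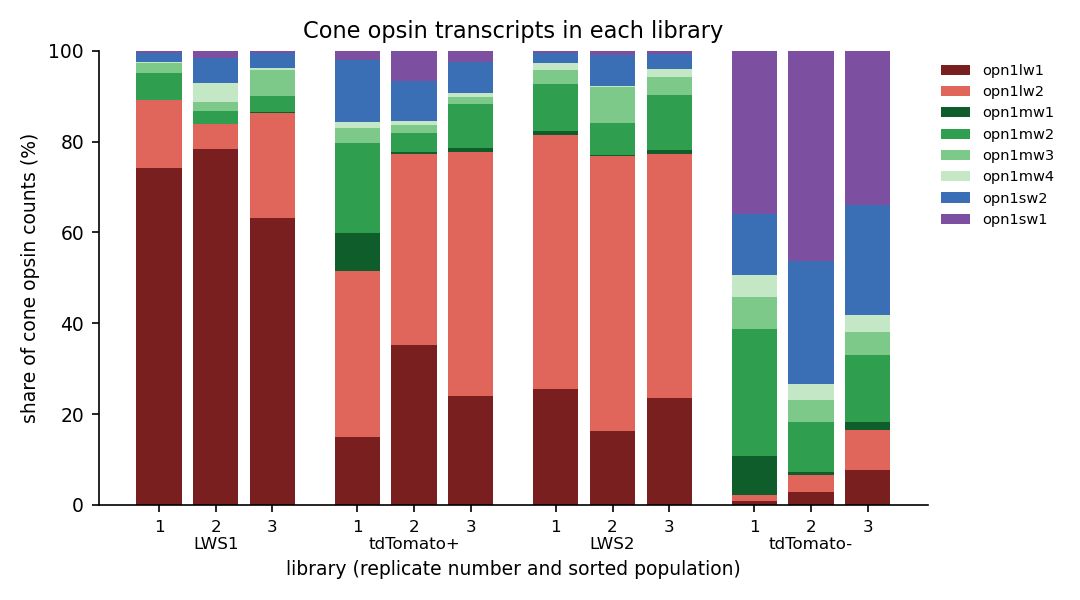
Share of cone opsin counts (%) taken by each cone opsin gene in every library, stacked to 100%, with replicate numbers under the bars. The lws opsins (red shades) take 84.0% to 89.2% in LWS1 libraries and only 51.5% in tdTomato+ replicate 1, where green and blue opsins take most of the rest.

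Rod genes shared this direction. Rods express rhodopsin (rho) and their own forms of transducin, phosphodiesterase and channel. Of 18 rod markers, 17 were tested, all 17 had negative log2 fold changes (52.8% of all features did) with a median of -1.19, 12 had an unadjusted p under 0.05 beside 2.94% of all features in that direction, and 0 were called by edgeR. The rho gene is also among the 8 opsins above. Its LWS1 libraries were at 1450, 2870 and 1820 CPM and its tdTomato+ libraries at 4110, 8650 and 3370 CPM. The highest LWS1 library lay just below the lowest tdTomato+ library (log2 fold change -1.39, SE 0.476, edgeR FDR = 0.668). Summed over the list, rod markers reached 2680 to 5600 CPM in LWS1 and 6130 to 16000 CPM in tdTomato+. Without tdTomato+ replicate 2 the median of the list was -0.57, and without tdTomato+ replicates 1 or 3 it was -1.46 or -1.49, with 16 of 17 negative. In bulk libraries fewer cells of a type and less RNA per cell cannot be told apart, and the part of rod or other cone RNA in the differences described here was not tested. Markers of UV, blue and green cones, a list made up mainly of the cone opsins above, summed to 2500 to 4710 CPM in LWS1. In tdTomato+ they summed to 5680 to 15300 CPM, with no overlap, which restates the opsin values. Of the 7 tested, 3 had positive log2 fold changes, among them TBX2, the tested marker that is not an opsin (1.14, all LWS1 libraries above).

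Markers of Muller glia had mostly positive fold changes, and few markers of other retinal cells passed the filter on low counts. Of 19 Muller glia markers, 12 were tested, 11 of them had positive log2 fold changes (47.2% of all features did) with a median of 0.64, and the one with the smallest p was slc1a2a, a glutamate transporter gene (log2 fold change 1.08, edgeR FDR = 0.668). The summed level was 1540, 2710 and 2540 CPM in LWS1 and 806, 2010 and 1060 CPM in tdTomato+, so the groups overlapped. In every library but tdTomato+ replicate 2, slc1a2a had the largest counts of the list, so it weighs heavily in these sums. It did not follow other glial markers. In tdTomato+ replicate 1 it had 1945 counts beside 194 of glula and 42 of rlbp1a, and in replicate 2 it had 470 beside 648 and 288. The median of this list was 0.11 without tdTomato+ replicate 1, 0.13 without LWS1 replicate 2 and 1.41 without tdTomato+ replicate 2. Of the 19 glial features, 2 had no count in any of the 6 libraries, among them S100B. Of 17 bipolar cell features 5 were tested (median -0.76 on the log2 scale), and of 20 amacrine cell features 7 were tested (median 0.23). Summed over all listed features, bipolar cell markers spanned 67.4 to 137 CPM in LWS1 and 15.5 to 307 CPM in tdTomato+, and amacrine cell markers 135 to 326 CPM and 189 to 403 CPM. Of the amacrine sums, slc32a1 alone gave 172, 210 and 217 CPM in tdTomato+ and 30.2, 10.4 and 73.4 CPM in LWS1. Positive log2 fold changes were found for 5 of the 7 tested amacrine features. Of 18 ganglion cell features 4 were at 0 in all 6 libraries, POU4F1, POU4F2 and POU4F3 among them, whereas rbpms2b, sncga and SNCG had counts in every library, and the list summed to 42.2, 69.7 and 155 CPM in LWS1 and at most 136 CPM in tdTomato+. Of 7 horizontal cell features 3 were at 0, ONECUT1 and ONECUT2 among them, and the sums were 18.1 to 64.1 CPM and 0.316 to 40.0 CPM. Of 17 pigment epithelium features 7 were at 0, TYR among them, and 3 were tested. An RPE65 feature had 22, 30 and 16 counts in LWS1 and 55, 103 and 48 in tdTomato+ (log2 fold change -1.07). The sum of this list was 11000, 12100 and 17700 CPM in LWS1 and 20900, 7830 and 6900 CPM in tdTomato+, nearly all from rbp4l. For rbp4l the log2 fold change was 0.20, and it was -0.05 for tdTomato+ over tdTomato- cells (edgeR FDR = 0.985). Of 18 microglia or macrophage features 4 were at 0, c1qa and csf1rb among them, and 4 were tested, at log2 fold changes of 0.89 to 3.04. Over all 18 the sums were 47.8 to 222 CPM in LWS1 and 14.0 to 118 CPM in tdTomato+. The groups overlapped in each of these sums, whose part in the differences was not tested.

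Of the 7214 features tested, edgeR's quasi-likelihood test called 1 higher in LWS1 (0.0139% of features) and 0 lower (0.0%), at an FDR under 0.05 and a fold change above 2. At an unadjusted p under 0.05 there were 176 higher (2.44%) and 212 lower (2.94%), or 388 in both directions, where 360.7 would be reached if no feature differed. The called feature was zgc:195170 (ENSDARG00000076264), whose function is not given in the sources used here. Its counts were 86, 69 and 40 in LWS1 and 0 in every tdTomato+ library. Expressed as CPM, LWS1 lay at 43.2, 55.3 and 54.4, at least 32.5-fold higher against a floor of 3 counts in each tdTomato+ library (edgeR FDR = 0.00611). In the other groups it had 126, 353 and 473 counts in LWS2 and 0 in all 3 tdTomato- libraries. It was thus detected in both sorts of lws:PAC(H) and in neither sort of thrb2:tdTomato. It was no longer called with limma-voom (FDR = 0.140), without LWS1 replicate 1 (edgeR FDR = 0.0724) or without tdTomato+ replicate 3 (edgeR FDR = 0.0656).

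Features with counts in only 1 of the 2 groups were also read in the other sort of each line. With 0 counts in every tdTomato+ library and more than 3 in every LWS1 library there were 3 features, zgc:195170, ENSDARG00000111123 and ENSDARG00000076357. All 3 had counts in every LWS2 library, 2 of them had none in any tdTomato- library, and the third had a single count in 1 tdTomato- library. The feature ENSDARG00000111123 had 85, 12 and 14 counts in LWS1 and 29, 64 and 9 in LWS2, and was at least 15.2-fold higher in LWS1 than in tdTomato+ against the floor (edgeR FDR = 0.136). In the other direction 13 features had 0 counts in every LWS1 library and more than 3 in every tdTomato+ library. None of the 13 was absent from all LWS2 libraries, 8 had counts in each of them, and 11 had counts in at least 2 tdTomato- libraries. Examples were utp6, a ribosome biogenesis gene, with 30, 7 and 19 counts in tdTomato+ and 18, 30 and 42 in LWS2, and cyb5r1, a cytochrome b5 reductase gene, with 7, 12 and 5 counts in tdTomato+ and 17, 34 and 47 in LWS2. All 13 fell below the filter on low counts, and 0 counts at these depths do not show absence.

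**Figure D3:**
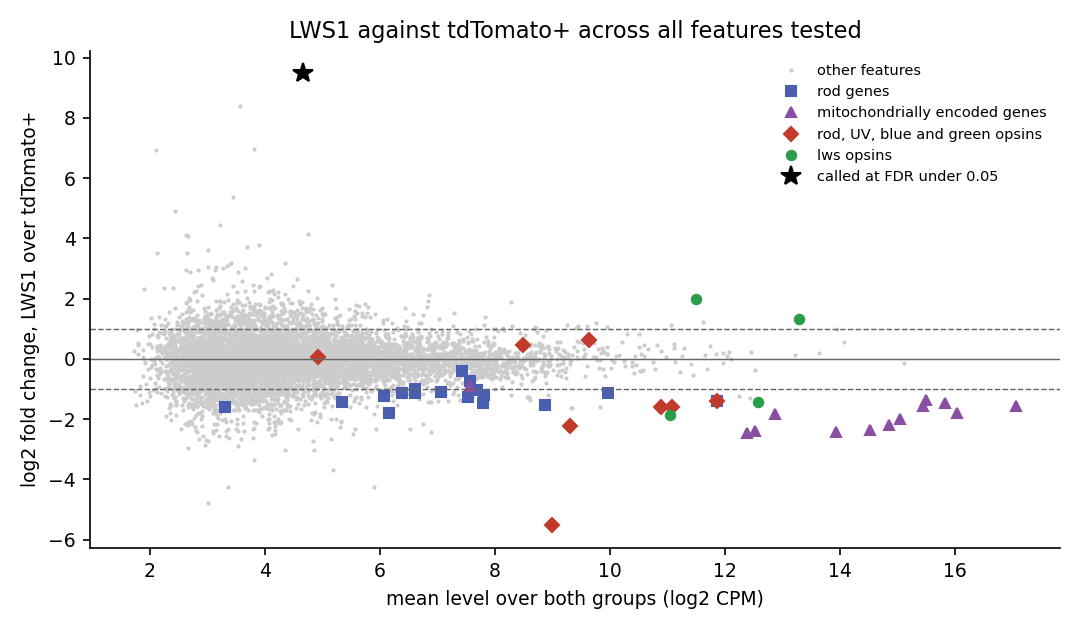
Log2 fold change of LWS1 over tdTomato+ against mean level (log2 CPM) for all 7214 features tested, with dashed lines at 2-fold. The one called feature is the star at 9.48, a fitted value against 0 counts that depends on the prior count and is no bound, rod genes and mitochondrially encoded genes all lie below 0, and the lws opsins lie on both sides.

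Several named genes came next in order of p among features whose libraries did not overlap between groups, as 341 features (4.73%) did with LWS1 above and 397 (5.50%) with LWS1 below. None of those named here passed the FDR in edgeR. Lack of overlap was part of the choice, so it is no added support for these genes. The ephrin receptor gene epha6 had 16, 18 and 45 counts in LWS1 and 1, 0 and 0 in tdTomato+. It had 14 to 19 counts in LWS2 libraries and 0, 22 and 13 in tdTomato- libraries. Summed over libraries and scaled to their sizes, LWS1 was 130-fold higher than tdTomato+ (exact 95% counting interval 22.7 to 5200, edgeR FDR = 0.136). Its level was highest in LWS1 replicate 3, the shallowest of the 6 libraries. The potassium-chloride cotransporter gene slc12a7a had 56, 33 and 7 counts in LWS1 and 2, 1 and 0 in tdTomato+, and its summed counts were higher in LWS1 with an exact 95% counting interval of 17.5-fold to 260-fold (edgeR FDR = 0.136). Such counting intervals leave out the spread between libraries. With that spread, edgeR's 95% intervals on the log2 scale were 4.37 to 9.58 for epha6 and 3.29 to 7.45 for slc12a7a. In LWS2, slc12a7a was low as well, at 7, 5 and 11 counts. The zinc finger gene znf395a was at 19.1, 36.1 and 28.5 CPM in LWS1 and at 2.84, 0.768 and 1.93 CPM in tdTomato+ (log2 fold change 3.77, SE 0.729, edgeR FDR = 0.136). Both slc12a7a and znf395a were also higher in LWS1 than in LWS2 (log2 fold changes 3.55 and 3.47, edgeR FDR = 0.0203 and 0.0168), a comparison that shares the LWS1 libraries.

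The alpha-tubulin gene tuba1c was at 512, 457 and 495 CPM in LWS1 and at 96.6, 178 and 121 CPM in tdTomato+. Its LWS1 libraries lay close together and far above the tdTomato+ libraries (log2 fold change 1.89, SE 0.369, edgeR FDR = 0.136). LWS2 was above the same tdTomato+ libraries as well, by less (1.22, edgeR FDR = 0.139). The mitochondrial carrier gene slc25a25b was at 14.6, 82.5 and 55.7 CPM in LWS1 and at 0.947, 2.31 and 5.30 CPM in tdTomato+ (log2 fold change 4.15, edgeR FDR = 0.136). For nlgn4xb, a neuroligin gene of synaptic adhesion, the counts were 31, 9 and 23 in LWS1 and 3, 1 and 1 in tdTomato+ (log2 fold change 4.44, edgeR FDR = 0.136). With all 4 groups in one fit, which shares the spread over 12 libraries, epha6, tuba1c, slc12a7a and slc25a25b were called beside zgc:195170, and lactbl1a was called lower.

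The genes below in LWS1 were picked in the same way, so their lack of overlap restates the choice. Among them, the interferon-inducible gene ifi27.1 was at 7.54, 6.41 and 8.15 CPM in LWS1 and at 41.3, 66.9 and 40.5 CPM in tdTomato+. The LWS1 values were uniform and all lower (log2 fold change -2.74, SE 0.540, edgeR FDR = 0.136). The beta-lactamase-like gene lactbl1a was at 43.2, 38.5 and 36.7 CPM in LWS1 and at 175, 101 and 255 CPM in tdTomato+ (log2 fold change -2.16, edgeR FDR = 0.136). It was lower in LWS1 than in LWS2 too (-1.45, edgeR FDR = 0.0160), a comparison that shares the LWS1 libraries. For slc32a1, which encodes the vesicular transporter of GABA and glycine, the values were 30.2, 10.4 and 73.4 CPM in LWS1 and 172, 210 and 217 CPM in tdTomato+. The LWS1 libraries varied widely and all lay below the tdTomato+ libraries (log2 fold change -2.43, SE 0.563, edgeR FDR = 0.251). This gene is a marker of amacrine cells, yet it was higher in tdTomato+ than in tdTomato- cells (log2 fold change 3.41, edgeR FDR = 0.0186). Further genes below were AUTS2 (log2 fold change -2.48), ELAPOR1 (2 counts in LWS1 and 85 in tdTomato+, 25.8-fold lower with an exact 95% counting interval of 6.93 to 217), the small heat shock gene hspb6 (-1.84) and si:ch211-132f19.7 (-2.34), at edgeR FDRs from 0.177 to 0.269. For ELAPOR1 edgeR's 95% interval, which takes in the spread between libraries, was -7.02 to -2.56 on the log2 scale. Features without a symbol were ENSDARG00000091187 (-2.66) and ENSDARG00000111722 (-4.24), both at an edgeR FDR of 0.136. All genes and features named in this paragraph were lower in LWS2 than in tdTomato+ too, at log2 fold changes from -2.86 to -0.69. That comparison shares the tdTomato+ libraries by which these features were picked, so it is no independent support. There AUTS2 (-2.76), ENSDARG00000091187 (-2.65) and slc32a1 (-1.55) passed, at edgeR FDRs of 0.0309, 0.0249 and 0.0320. Between LWS1 and LWS2, AUTS2 and ENSDARG00000091187 hardly differed (0.30 and 0.02).

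**Figure D4:**
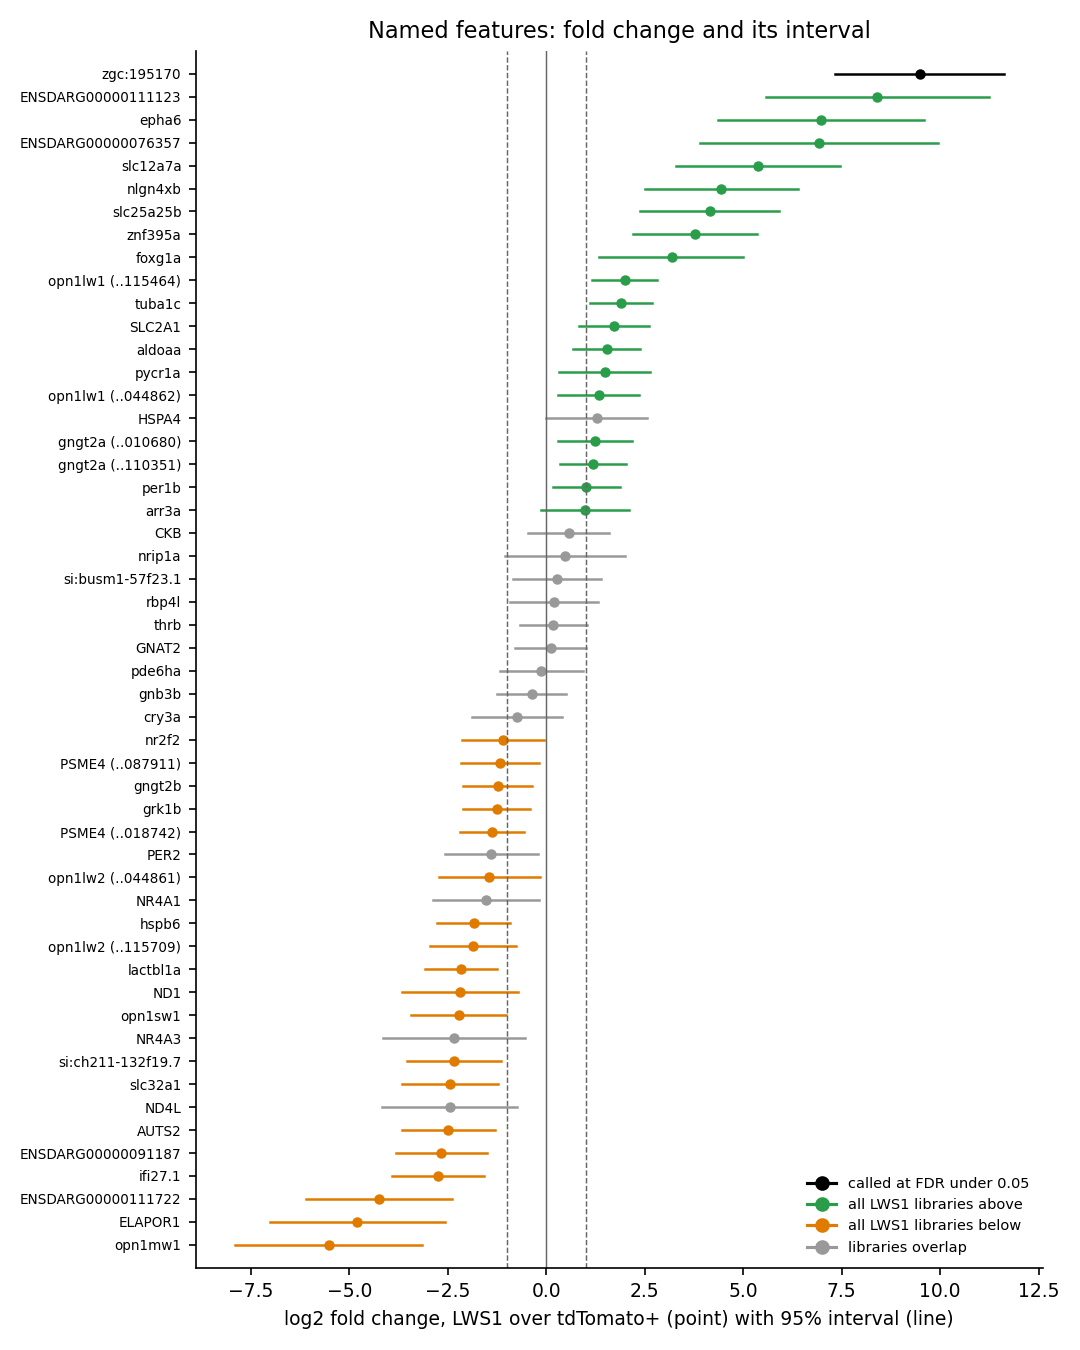
Log2 fold change of LWS1 over tdTomato+ (points) with its 95% interval (lines) for the features named by rule and tested, ordered by size, with dashed lines at 2-fold. One feature (black) passed the FDR, green and orange features had libraries that did not overlap, and the grey intervals of pde6ha, GNAT2, gnb3b, CKB and rbp4l span 0.

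Regulators of LWS cones were not called, and several had wide intervals. The thyroid hormone receptor gene thrb was at 1100, 1240 and 796 CPM in LWS1 and at 547, 1000 and 1220 CPM in tdTomato+. The groups overlapped, and the log2 fold change of 0.18 had a 95% interval from -0.67 to 1.04 (edgeR FDR = 0.984), which excludes a 2-fold decrease but not quite a 2-fold increase. Its direction reversed without tdTomato+ replicate 1. The nuclear receptor gene nr2f2 was at 21.6, 17.6 and 21.7 CPM in LWS1 and at 56.8, 33.8 and 40.0 CPM in tdTomato+, with no overlap (log2 fold change -1.10, SE 0.481, edgeR FDR = 0.833). Against LWS2 it was lower by more (-2.10, edgeR FDR = 0.0109). For nrip1a, which encodes a cofactor of nuclear receptors, the counts were 159, 23 and 25 in LWS1 and 21, 47 and 113 in tdTomato+, and the interval from -1.05 to 1.99 leaves its direction undetermined. The homeobox gene VAX2 had 7, 1 and 2 counts in LWS1 and 0 in every tdTomato+ library, and VAX1 had 8, 13 and 3 against 2, 7 and 4. Both lay below the filter on low counts and were not tested.

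Of 48 features listed as cone transcriptional regulators, 30 were tested and edgeR called 0. At an unadjusted p under 0.05, 5 were higher (2.44% of all features) and 2 lower (2.94%), and the median log2 fold change was 0.09. Beside znf395a the higher members were the forkhead gene foxg1a (34.2, 12.8 and 10.9 CPM in LWS1, 2.84, 3.07 and 0.482 CPM in tdTomato+, log2 fold change 3.18), six6a (3.51), TBX2 (1.14) and six7 (0.89). The last, a homeobox gene known in zebrafish for green and blue cone opsin expression, was at 694, 510 and 447 CPM in LWS1 and at 300, 312 and 279 CPM in tdTomato+. In all 5, which were picked by their p, the libraries did not overlap. Of the 30 tested, all LWS1 libraries lay above for 7 and below for 3 (4.73% and 5.50% of all features).

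Among abundant transcripts of phototransduction, pde6ha, GNAT2 and gnb3b overlapped between the groups, whereas arr3a did not, nor did gngt2a, gngt2b and rcvrn3. The nuclear gene with the most counts, pde6ha, which encodes an inhibitory subunit of cone phosphodiesterase, was at 29300, 31700 and 40800 CPM in LWS1 and at 42500, 42700 and 25700 CPM in tdTomato+. These values overlapped, and the log2 fold change was -0.12 (95% interval -1.17 to 0.93, edgeR FDR = 0.990). The cone transducin alpha gene GNAT2 was at 8160, 9770 and 11800 CPM in LWS1 and at 9180, 10100 and 8200 CPM in tdTomato+ (log2 fold change 0.12, 95% interval -0.78 to 1.01). The transducin beta gene gnb3b had -0.37 (-1.24 to 0.49). Of abundant genes outside the phototransduction list, the creatine kinase gene CKB had 0.57 (-0.46 to 1.59). The retinol-binding protein gene rbp4l, listed above as a pigment epithelium marker, had 0.20 (-0.92 to 1.32). Cone arrestin arr3a was at 18800, 20600 and 23200 CPM in LWS1 and at 18300, 7220 and 6260 CPM in tdTomato+. Although its libraries did not overlap, LWS1 replicate 1 was barely above tdTomato+ replicate 1, and the interval from -0.13 to 2.09 spans 0 (edgeR FDR = 0.916). Another cone arrestin feature, ARR3, went the other way at -1.21 with overlapping libraries (edgeR FDR = 0.806).

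Of 40 phototransduction features, 37 were tested with a median log2 fold change of -0.12, 3 were higher and 8 lower at an unadjusted p under 0.05 (2.44% and 2.94% of all features), and 0 were called. Outside transducin gamma, the opsin kinase gene grk1b was at 174, 269 and 242 CPM in LWS1 and at 347, 543 and 748 CPM in tdTomato+ (log2 fold change -1.26, SE 0.391, edgeR FDR = 0.626). The recoverin gene rcvrn3 had a log2 fold change of 1.14, the second cone kinase gene grk7b had -2.38 and the guanylate cyclase gene gucy2f had -1.53, each without overlap. The cone kinase gene GRK7, far more abundant than grk7b, had 0.05 (-0.97 to 1.08) with overlapping libraries. Past these, 2 members had a 95% interval wholly within 2-fold, as 4.89% of all features did, guca1c at 0.12 (-0.72 to 0.96) and slc24a2 at 0.10 (-0.76 to 0.97), which encode a guanylate cyclase activator and a sodium-calcium exchanger. Both were chosen after their values were seen.

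Genes of energy metabolism went in different directions. All 13 mitochondrially encoded genes had negative log2 fold changes (52.8% of all features did), with a median of -1.84, 9 at an unadjusted p under 0.05 beside 2.94% of all features in that direction, and 0 called. For ND1, a complex I subunit gene, the LWS1 libraries were at 7130, 12600 and 12200 CPM and the tdTomato+ libraries at 15000, 102000 and 27600 CPM, so that tdTomato+ replicate 2 was far above the rest. Without that library the median of the list was -0.56, and all 13 were still negative. As a share of all counts, mitochondrially encoded genes took 25.6% ± 5.85 in LWS1 and 45.0% ± 25.0 in tdTomato+ (SD, n = 3 each), which differ by -19.4 points (exact permutation p = 0.3, two-sided, adjusted 0.3), or by -6.06 points without tdTomato+ replicate 2. In LWS2 the share was lower still, at 13.5% ± 0.454 (SD, n = 3).

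Among 35 tested genes of glycolysis and the hypoxia response, 5 were higher and 3 lower at an unadjusted p under 0.05 (2.44% and 2.94% of all features), the median was 0.18 and 0 were called. The glucose transporter gene SLC2A1 was at 170, 127 and 224 CPM in LWS1 and at 40.1, 43.8 and 74.7 CPM in tdTomato+ (log2 fold change 1.71, SE 0.412, edgeR FDR = 0.281). The aldolase gene aldoaa was at 165, 228 and 302 CPM in LWS1 and at 99.4, 82.2 and 56.4 CPM in tdTomato+ (1.54, SE 0.393, edgeR FDR = 0.326). The enolase gene eno1a (1.11), the lactate dehydrogenase gene ldha (1.14) and the angiogenic factor gene vegfaa (2.25) were also above without overlap. The lower members were the phosphofructokinase features PFKM (-1.18) and pfkmb (ENSDARG00000109412, -1.11), both without overlap, and PFKFB4 (-1.43), whose libraries overlapped. The product of PFKFB4 sets the level of the activator of phosphofructokinase. Other entries did not follow. A second pfkmb feature (ENSDARG00000115422) had -0.33 and pfkfb4a had 1.23, both with overlapping libraries. Within 2-fold by their intervals were HK1, pgam1b and HIF1A, at log2 fold changes of 0.21, -0.16 and 0.08, named after their values were seen.

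Clock, stress and proteasome genes are set beside all features, of which 2.44% were higher and 2.94% lower at an unadjusted p under 0.05. Of 33 circadian genes tested, 1 was higher and 1 lower at an unadjusted p under 0.05, with a median log2 fold change of -0.02. The higher was per1b, at 540, 247 and 346 CPM in LWS1 and 206, 137 and 217 CPM in tdTomato+ (log2 fold change 1.02, edgeR FDR = 0.730), and the lower was PER2 (-1.39, edgeR FDR = 0.755), whose libraries overlapped. The cryptochrome gene cry3a, at -0.74 (95% interval -1.89 to 0.41), overlapped too. Of 51 tested proteasome features, 30 had positive and 21 negative log2 fold changes (47.2% and 52.8% of all features), with a median of 0.07. The 2 with an unadjusted p under 0.05 were both PSME4 features (-1.38 and -1.17), which encode an activator of the core particle. The 30 tested genes of heat shock and the integrated stress response had a median of -0.10, with pycr1a alone at an unadjusted p under 0.05 (1.48, edgeR FDR = 0.700). Of 14 immediate early genes, the orphan receptor genes NR4A3 (-2.34) and NR4A1 (-1.52) had an unadjusted p under 0.05 (2.94% of all features in that direction). Their libraries overlapped, and the median of the list was -0.51. The gene si:busm1-57f23.1, of a predicted endopeptidase inhibitor, was at 201, 103 and 573 CPM in LWS1 and at 213, 294 and 220 CPM in tdTomato+, and its interval from -0.85 to 1.38 spans both directions. None of these lists held a call.

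Similarity of the groups was measured as far as the spread allowed. Across features, log2(CPM + 0.5) correlated at 0.737 to 0.815 between LWS1 libraries, at 0.752 to 0.837 between tdTomato+ libraries and at 0.721 to 0.851 (median 0.765, 9 pairs) between libraries of different groups. The range of pairs from different groups thus took in that of replicates. The group means correlated at 0.904 (Pearson) and 0.864 (Spearman). These are correlations across features, which share libraries and depth and are not independent.

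**Figure D5:**
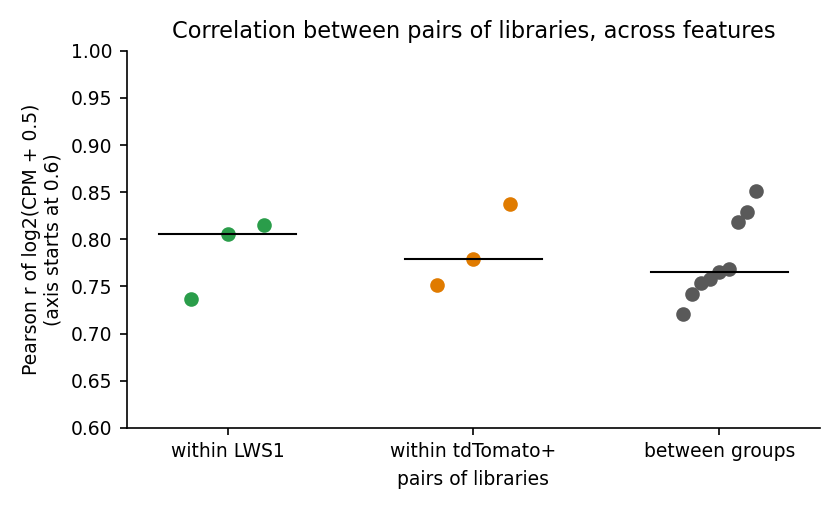
Pearson correlation of log2(CPM + 0.5) across features for each pair of the 6 libraries, within LWS1 (3 pairs), within tdTomato+ (3 pairs) and between groups (9 pairs), with lines at the medians and an axis that starts at 0.6. The 9 pairs between groups span 0.721 to 0.851, over the range of the replicate pairs.

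A small number of calls does not by itself show that levels were equal. The median absolute log2 fold change was 0.43, and 1246 features (17.3%) had a point estimate beyond 2-fold. The 95% interval lay wholly within 2-fold for only 353 of the 7214 features (4.89%), and for 262 of the 921 features with a mean of at least 100 CPM (28.4%). The median half-width of the interval was 1.39 on the log2 scale, and 0.848 for those more abundant features. For most features, then, the interval did not exclude a 2-fold difference. The biological coefficient of variation was 0.526 here. For the comparisons that share libraries with this one it was 0.381 (LWS1 vs LWS2, 8432 features tested, 18.0% within 2-fold) and 0.441 (LWS2 vs tdTomato+, 9598 tested, 12.5% within 2-fold). The choice of test and of filter also moved the calls. DESeq2, run without the filter on low counts, called 27 features higher and 20 lower in LWS1. Of these, 21 and 18 were among the features tested by edgeR. Without that filter edgeR called 78 and 30, of which 18 and 22 were among those features, so the test and the filter are not separated here. With the filter, limma-voom called 0 in either direction. Those that DESeq2 called included epha6, slc12a7a, znf395a, tuba1c and SLC2A1 above and opn1mw1, opn1sw1, ND1, ifi27.1 and lactbl1a below.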

How the data were processed

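RNA from sorted cells was sequenced after poly-A selection. Per the paper, reads were trimmed (Trimmomatic 0.36), mapped to GRCz11 using both STAR and Salmon, and read into R through tximport. The counts that the authors deposited are whole numbers, not normalized, for 30258 features with Ensembl IDs. Which aligner gave the deposited counts is not given in the sources used here. Their 2 deposited comparison tables (fold changes, p-values and 12 columns of per-sample values) were not used except for gene symbols. Symbols came from those tables for 1010 features and otherwise from a name table for 22639, where capitals mark an orthologue's symbol, and 6609 had none. Strandedness of the counting is not given in the sources used here, so antisense or overlapping genes cannot be separated. No reference sequence was used.

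Features were kept by filterByExpr, scaled by TMM and tested with edgeR 4.0.16 (quasi-likelihood, Benjamini-Hochberg adjustment over all 7214 features, FDR under 0.05 and fold change above 2), with only the 6 libraries in the fit. The paper's tool, DESeq2 1.42.0, and limma 3.58.1 (voom) were alternatives. DESeq2 took all features with a count, without filterByExpr. Standard errors and 95% intervals came from the fold change and the test statistic. CPM values use TMM library sizes. Shares used two-sided exact permutation tests. Lists are described by counts and medians, without a set test. The members and lists were chosen with earlier results of these data known. Named features were called ones, the 8 higher and 8 lower with a symbol, no overlap and the smallest p, the genes discussed for LWS cone subtypes, the 8 most abundant, the 2 members of each list with the smallest p, and up to 2 features without a symbol of each kind. Other list members with an unadjusted p under 0.05, and the examples of absent features, were named after their values were seen. The fits were also run on simulated counts, drawn with dispersions fitted to these data. No simulated library stood apart as tdTomato+ replicate 2 did, so that run does not check the fits on such a library. Computation used R 4.3.3, Python 3.11.15, pandas 2.3.3, scipy 1.17.1 and matplotlib 3.10.9.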

Additional observations from a re-analysis of the deposited data

How the results depend on the processing

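Of 52 named features, 46 kept their direction under every alternative run that tested them. Many were picked for libraries that did not overlap, so leaving out a library could hardly reverse them. This count is thus no added support. The stricter filter on low counts tested 42 of the 52, and the run without mitochondrially encoded genes tested 48. With DESeq2, 27 features were called higher and 20 lower in LWS1, without the filter on low counts 78 and 30 (18 and 22 of them among the features otherwise tested), with all 4 groups in one fit 5 and 1, and with limma-voom 0 and 0. Some calls by DESeq2 and without the filter rest on 1 library. Both called ENSDARG00000115099, which had 0, 0 and 77 counts in LWS1 and 0 in tdTomato+. Leaving out a library gave 0 to 1 higher and 0 lower, with 0 without LWS1 replicate 1 or tdTomato+ replicate 3. The 353 features within 2-fold became 227 without the filter, 678 with all 4 groups and 9 to 320 without one library (9, 16 and 10 without LWS1 replicates 1, 2 and 3, and 64 without tdTomato+ replicate 2). Intervals were not run with DESeq2. Same-numbered libraries had correlations of deviations of 0.075, 0.058 and -0.136, beside -0.151 to 0.098 for different numbers. No pairing by number was seen, but 3 libraries a group are too few to decide whether the numbers pair the samples. With the replicate block 1 feature was called higher, 0 lower, and 122 were within 2-fold. Features absent from tdTomato+ numbered 3, or 41 with any count above 0, and 6 to 23 without one library. Those absent from LWS1 numbered 13, or 199 with any count above 0, 0 at 10 or more counts, and 24 to 93 without one library. The log2 fold change of si:busm1-57f23.1 turned to -0.12 with limma-voom and -0.06 with the replicate block. Without one library it ranged from -0.69 to 0.66, that of thrb from -0.10 to 0.43, nrip1a from -0.32 to 1.09, rbp4l from -0.07 to 0.88, GNAT2 from -0.05 to 0.22 and pde6ha from -0.32 to 0.01. The cause of these shifts was not tested. With 3 libraries a group, exact tests cannot go below p = 0.1.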

Other observations

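Outside the lists, several genes had higher values in LWS1 and were called by DESeq2 but not by the edgeR test with its filter on low counts. The potassium channel subunit gene kcnv2b (ENSDARG00000110270), whose human orthologue is known from a cone dystrophy, was at 164, 167 and 208 CPM in LWS1 and at 62.2, 28.4 and 52.1 CPM in tdTomato+, with no overlap (edgeR log2 fold change 1.91, SE 0.404, edgeR FDR = 0.164, DESeq2 FDR = 0.00795), and edgeR called it without that filter (edgeR FDR = 0.0159). A second kcnv2b feature had overlapping libraries and a log2 fold change of 0.49, so reads could be split between copies. The RNA-binding protein gene pcbp4 was at 141 ± 11.1 CPM in LWS1 and at 50.6 ± 8.30 CPM in tdTomato+ (SD, n = 3 each, no overlap, edgeR log2 fold change 1.48, edgeR FDR = 0.326). For the lipase gene abhd12 the values were 110, 167 and 120 CPM in LWS1 and 46.7, 33.0 and 42.4 CPM in tdTomato+ (1.69, edgeR FDR = 0.251). Of the lower genes, the transcription factor gene SOX6 had 13, 0 and 10 counts in LWS1 and 105, 84 and 118 in tdTomato+ (edgeR log2 fold change -3.02, edgeR FDR = 0.456, DESeq2 FDR = 0.0282, edgeR FDR without the filter 0.00625). These genes were chosen after their values were seen. Because DESeq2 and edgeR without the filter also called features counted in 1 library, their calls on the same counts are no independent support.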
